A study of Mus musculus with 18 samples.

Results

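The comparison described here set 3 libraries of mouse haematopoietic stem cells kept for 48 h at pH 6.9 against 3 libraries of freshly isolated cells, 6 of the 18 libraries in the series. Haematopoietic stem cells are the rare bone marrow cells that renew themselves and give rise to all blood lineages. The 6 libraries were chosen by the first sequencing index in their names, 706 for the cultured cells and 702 for the fresh ones, with no use of the measured values. Each set held mice 2, 4 and 6, so that every mouse gave 1 library to each set.

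All cells were labelled as wild-type C57BL/6 bone marrow stem cells, and the growth protocol names B6.SJL animals of 8 to 12 weeks. The fresh set was labelled pH 7.4 and uncultured. The cultured set was held at 37 °C in 5% CO2 and 3% O2, in IMDM adjusted to pH 6.9, with 10% FBS named for the medium; cytokines, SCF and G-CSF among them, were added at 50 ng/ml in the protocol. Each library came from 100 sorted long-term stem cells, amplified as full-length cDNA and read as paired 75 bp reads. Culture, pH and first index changed together between the 2 sets, and their parts in a difference cannot be told apart from these 6 libraries. In bulk libraries such as these, fewer cells of a type and less RNA per cell cannot be told apart either.

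Polyamines are small positively charged molecules made from ornithine and S-adenosylmethionine, and the series was built around their part in the response of stem cells to pH. Ornithine decarboxylase, Odc1, makes putrescine, and spermidine synthase, Srm, turns it into spermidine. Spermidine also provides the hypusine residue that makes the translation factor eIF5A active. Long-term stem cells are known for little division and low protein synthesis, and for active lysosomes and autophagy, the route by which a cell delivers its own parts to the lysosome.

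Total counts lay between 2854046 and 3244394 in the fresh libraries and between 1640817 and 4734840 in the pH 6.9 libraries. The fresh library of mouse 4 stood apart from the other 5. It had 9408 genes detected, against 11536 to 12516 in the others, and its correlation with the remaining libraries in log2 values, across genes, was 0.69 to 0.77. Of 2040 genes at 100 CPM or more in both other fresh libraries (CPM are counts per 1e+06 counts after TMM scaling), 286 were under 0.25 of their mean in it and 669 were over 2 times their mean, against at most 35 and 17 for either other fresh library. Its TMM factor was 0.62, against 0.99 to 1.12 in the other 5, which raises all of its CPM values in that proportion. It was left out of the main test, and counts and calls that change with it are given both ways. The other fresh pair correlated at 0.95, and the 3 pH 6.9 libraries at 0.93 to 0.95 among themselves.

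Across the series the libraries did not all group by their labels. In log2 values, across genes, the pH 6.9 libraries of index 706 correlated at a mean of 0.935 with the pH 7.4 libraries of mice 1, 3 and 5 kept for 48 h (index 707) and at 0.887 with the other pH 6.9 libraries, those of mice 1 and 5 (index 705). The fresh libraries of mice 2 and 6 correlated at a mean of 0.935 with the 705 libraries and at 0.906 with the 706 libraries. Most genes called here also had the opposite sign in the odd-numbered mice, with counts given further on. The sets are named as the labels name them, no gene measured here checks the pH or the culture of a library, and whether each label matches its sample was not tested.

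The sorted cells were checked against markers of the stem cell and of other blood cells. Defining stem cell genes were low in both sets. Procr, a surface receptor of stem cells, lay at 14.99, 1.13 and 11.2 CPM in the fresh libraries of mice 2, 4 and 6 and at 19.8, 32.8 and 7.52 CPM at pH 6.9. Slamf1 did not exceed 8.46 CPM in any library, and Hoxb5 did not exceed 2.26 CPM. Fgd5 lay at 5.31, 0 and 1.55 CPM fresh and 3.96, 0 and 2.63 CPM at pH 6.9. Ly6a, which encodes Sca-1, was higher throughout, at 404, 2202 and 343 CPM fresh and 768, 1042 and 897 CPM at pH 6.9. Of the genes that are low in long-term stem cells, Flt3 lay at 17.5, 28.7 and 18.3 CPM against 6.79, 18.1 and 12.0 CPM, whereas Cd34 lay at 315 CPM or more in every library, which goes against that pattern at the level of RNA. Kit lay at 107, 28.7 and 78.0 CPM fresh and 67.9, 203 and 192 CPM at pH 6.9. It passed the test without the pH 6.9 library of mouse 2 (adjusted p = 0.021, edgeR) and not with all 5. Markers of other cells were summed over whole lists. The 17 B and T cell genes summed to 115 to 175 CPM fresh and 47.7 to 88.9 CPM at pH 6.9, with Cd3e and Ms4a1 at 0 in all 6 libraries. The 27 neutrophil and granulocyte-monocyte progenitor genes summed to 146 to 413 CPM fresh and 122 to 154 CPM at pH 6.9, with Mpo at 21.9, 2.25 and 83.2 CPM fresh and 1.13, 9.66 and 6.39 CPM at pH 6.9. The 19 monocyte and macrophage genes summed to 268 to 763 CPM fresh and 251 to 304 CPM at pH 6.9, and the 19 erythroid genes to 1250 to 1547 CPM fresh and 1315 to 2162 CPM at pH 6.9. The 18 mast cell and basophil genes summed to 20.3 to 81.7 CPM fresh and 149 to 201 CPM at pH 6.9. In each library 9 to 14 of them had no count, and the 9 tested held 5 positive and 4 negative log2 changes. The higher sum of mast cell genes thus does not describe that list as a whole. The 17 stromal and endothelial genes summed to 157 to 196 CPM fresh and 445 to 478 CPM at pH 6.9, with Cdh5 at 0 in all 6. The 6 stromal genes tested all had a positive log2 change. The 30 megakaryocyte and platelet genes summed to 3924 to 4136 CPM fresh and 2902 to 5697 CPM at pH 6.9, and the 19 epithelial genes to 194 to 360 CPM and 170 to 235 CPM, with Krt5 at 0 in all 6. In the monocyte, megakaryocyte and erythroid lists no tested gene was called of 10, 26 and 10 (3, 2 and 2 at an unadjusted p under 0.05, edgeR). In the mast cell list 1 of 9 was called higher and in the stromal list 1 of 6. Called lower were 1 of 4 in the B and T cell, 1 of 13 in the neutrophil and 1 of 9 in the epithelial list. With the fresh library of mouse 4 these 5 counts were 0, 1, 1, 1 and 0. Over all genes tested 4.98% were called higher and 5.17% lower without it. The 13 genes of multipotent and lymphoid-primed progenitors summed to 933, 459 and 917 CPM fresh and 1396, 2106 and 1365 CPM at pH 6.9, and of 12 tested 1 was called higher and 1 lower, or 1 and 0 with the fresh library of mouse 4. Most of this sum was Cd34, at 648, 315 and 653 CPM fresh and 1249, 1923 and 1205 CPM at pH 6.9. Of the 12 tested, 5 had a positive and 7 a negative log2 change, with a median of -0.63, so the higher sum does not describe the list as a whole. The sums of this list and of the mast cell, stromal and B and T cell lists did not overlap between the sets, and their part in the results below was not tested.

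In the main test, which held the fresh libraries of mice 2 and 6 against all 3 of pH 6.9 within a fit of 15 libraries, 1139 of 11226 genes differed by edgeR's quasi-likelihood test at an adjusted p under 0.05 (10.1%). Of these, 559 were higher at pH 6.9 (4.98%) and 580 were lower (5.17%). With the fresh library of mouse 4 in the fit, 242 genes were higher (2.17%) and 485 lower (4.35%). Among the 559 genes, 234 remained called in the same direction and 537 kept their sign; among the 580, 402 remained called and all 580 kept their sign. Without regard to the test, the 3 fresh and 3 pH 6.9 libraries did not overlap in 1617 genes with higher values at pH 6.9 (14.4%) and in 1352 with lower values (12.0%).

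The stretches below show the sequence around the letters CACGTG, the E-box read by basic helix-loop-helix factors of the MYC and TFEB families, in 6 called genes, 2 higher and 4 lower at pH 6.9. Windows ran from 250 bases before to 50 after each RefSeq start (GRCm38.p6), and the 80 bases printed lie on the strand of the gene, with the E-box in capitals. The stretch of Ctsd lies at chr7:142387883-142387962 (minus strand), that of Mxd4 at chr5:34187881-34187960 (minus), that of Nme1 at chr11:93968248-93968327 (minus), that of Rpl19 at chr11:98026654-98026733 (plus), that of Atp5g1 at chr11:96075633-96075712 (minus) and that of Mrpl20 at chr4:155802808-155802887 (plus).
Ctsd: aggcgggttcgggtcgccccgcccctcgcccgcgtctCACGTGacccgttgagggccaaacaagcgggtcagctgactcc
Mxd4: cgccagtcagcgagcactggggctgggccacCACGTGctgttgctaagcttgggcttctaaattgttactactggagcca
Nme1: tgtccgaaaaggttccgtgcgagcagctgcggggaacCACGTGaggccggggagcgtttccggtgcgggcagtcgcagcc
Rpl19: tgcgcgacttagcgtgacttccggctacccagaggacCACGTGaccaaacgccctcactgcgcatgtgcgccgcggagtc
Atp5g1: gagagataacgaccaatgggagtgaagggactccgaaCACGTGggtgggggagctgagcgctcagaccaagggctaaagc
Mrpl20: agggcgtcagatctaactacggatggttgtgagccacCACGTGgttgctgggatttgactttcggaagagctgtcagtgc

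The E-box letters are their own reverse complement, so 1 search covers both strands. They were found in the window of 51 of 434 genes called higher that had a window in the RefSeq table (11.8%), and in 73 of 486 genes called lower (15.02%). Among all tested genes with a window the share was 11.9% of 9102, and over the 27025 genes of the whole reference it was 8.09%. A gene counted as holding a motif if any of its windows did. In the lysosome list 13 of 39 genes held it (33.3%), in the ribosome biogenesis list 13 of 53 (24.5%) and in the cytosolic ribosomal proteins 6 of 57 (10.5%). Of the genes with a window, the CCAAT box (CCAAT on either strand) was found in 44.2% of those called higher, 39.7% of those called lower and 43.4% of all tested. The GC box (GGGCGG on either strand) was found in 71.4%, 70.6% and 69.4%. A match is a description of the letters in a window and says nothing of binding.

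Of 11 tested genes of polyamine synthesis, 3 were called lower at pH 6.9 and none higher (2 and none with the fresh library of mouse 4), with a median log2 change of -0.51 against 0.10 over all genes tested. Srm, spermidine synthase (chr4:148591503-148594993, plus strand), lay at 729, 494 and 854 CPM in the fresh libraries of mice 2, 4 and 6 and at 277, 186 and 187 CPM at pH 6.9. The highest pH 6.9 library was below the lowest fresh one. The log2 change was -1.83 ± 0.23 (SE, adjusted p = 0.0002, edgeR), and -1.64 (adjusted p = 0.0108) with the fresh library of mouse 4. Odc1, the ornithine decarboxylase (chr12:17544794-17551505, plus strand), lay at 503, 638 and 609 CPM fresh and 235, 285 and 273 CPM at pH 6.9, again without overlap. Its log2 change was -1.02 ± 0.17 (adjusted p = 0.00154, edgeR). Ahcy, which clears the S-adenosylhomocysteine made by methylation, lay at 184 and 189 CPM in the fresh libraries of mice 2 and 6 and at 0 in that of mouse 4, against 79.2, 106 and 108 CPM at pH 6.9. Its adjusted p was 0.0181 without the library of mouse 4, 0.861 with it, and 0.0537 to 0.0888 without the fresh library of mouse 2 or 6 or the pH 6.9 library of mouse 2 (edgeR).

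The other members of the pathway did not pass the test. Sms, spermine synthase, lay at 75.3, 66.5 and 80.4 CPM fresh and 37.9, 49.8 and 56.7 CPM at pH 6.9, with a log2 change of -0.64 ± 0.34 (adjusted p = 0.26, edgeR). Amd1, the S-adenosylmethionine decarboxylase, lay at 245, 2.82 and 184 CPM fresh and 122, 196 and 142 CPM at pH 6.9. The antizyme inhibitor Azin1 lay at 85.6, 32.7 and 132 CPM fresh and at 45.8, 90.7 and 51.7 CPM at pH 6.9, and passed the test without the pH 6.9 library of mouse 4 (adjusted p = 0.022, edgeR). The antizyme Oaz1, which sends ornithine decarboxylase to the proteasome, lay at 1226, 1714 and 1031 CPM against 1148, 1049 and 930.1 CPM, and these ranges overlapped.

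Of 9 tested genes of polyamine breakdown and transport, 2 were called higher at pH 6.9 and none lower, and 0 with the fresh library of mouse 4 (edgeR; 3 of the 9 had an unadjusted p under 0.05 without it). Sat1, which acetylates spermidine and spermine for export, lay at 92.5, 142 and 62.7 CPM fresh and 217, 157 and 219 CPM at pH 6.9. Its log2 change was 1.39 ± 0.33 (adjusted p = 0.0129, edgeR), and the adjusted p was 0.107 with the fresh library of mouse 4. Smox, spermine oxidase, lay at 9.06, 16.3 and 9.63 CPM fresh and 28.3, 42.2 and 21.99 CPM at pH 6.9, with a log2 change of 1.76 ± 0.44 (adjusted p = 0.0164, edgeR). With the fresh library of mouse 4 its adjusted p was 0.0684. Both calls were lost without the fresh library of mouse 6, where the adjusted p was 0.134 for Sat1 and 0.0914 for Smox (edgeR), and Smox also without that of mouse 2 (0.134) or the pH 6.9 library of mouse 4 (0.066). Sat1 lost it too without the pH 6.9 library of mouse 6 (0.0546), and Smox with the mouse number as a block (0.0536). Values did not overlap between the sets for either gene.

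Eif5a, the translation factor that carries hypusine, was the one called member of the 4 hypusination genes, of which none was called with the fresh library of mouse 4. It lay at 4058, 548 and 4279 CPM fresh and at 2305, 2011 and 1714 CPM at pH 6.9. The fresh library of mouse 4 thus lay below all 3 pH 6.9 libraries, and the other fresh libraries above them. The log2 change was -1.01 ± 0.17 (adjusted p = 0.00152, edgeR), and the adjusted p was 0.537 with the library of mouse 4. The enzymes that add the hypusine, Dhps at 56.5, 25.9 and 32.3 CPM fresh and 34.5, 22.5 and 25.4 CPM at pH 6.9, and Dohh at 51.5, 8.45 and 55.6 CPM against 39.6, 39.5 and 27.2 CPM, did not pass the test.

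**Figure D1:**
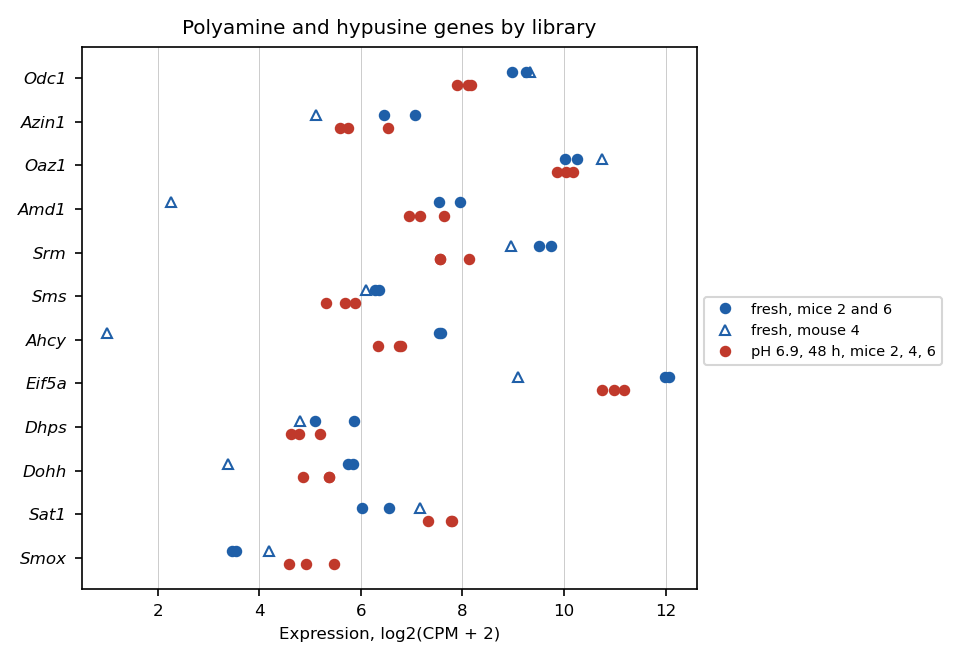
Expression of 12 polyamine and hypusine genes in each library, as log2(CPM + 2). Filled blue circles are the fresh libraries of mice 2 and 6, the open triangle that of mouse 4 and red circles the pH 6.9 libraries; the sets did not overlap for Odc1, Srm, Sms, Sat1 and Smox, and the library of mouse 4 lay below every other for Azin1, Amd1, Ahcy, Eif5a and Dohh.

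Calls among genes of protein synthesis were all downward. Cytosolic ribosomal proteins had 51 of 78 called lower, with a median log2 change of -1.18. Ribosome biogenesis had 33 of 60 (-0.87), mitochondrial ribosomal proteins 37 of 77 (-0.74) and translation factors 20 of 42 (-0.66). Including mouse 4 of the fresh set, the counts were 40, 22, 37 and 16. The summed level of the cytosolic ribosomal proteins was 64961, 76285 and 55299 CPM in the fresh libraries and 34773, 26224 and 28612 CPM at pH 6.9, so that the sets did not overlap.

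Ncl, nucleolin, which acts in rRNA transcription and processing, lay at 1579, 4911 and 2160 CPM fresh and 763, 703 and 660.3 CPM at pH 6.9. Its log2 change was -1.35 ± 0.18 (adjusted p = 0.0003, edgeR). Nhp2, a protein of the H/ACA particles that guide rRNA pseudouridylation, fell by 1.67 ± 0.21 on the log2 scale, from 839, 1800 and 751 CPM to 287, 230 and 213 CPM (adjusted p = 0.000186, edgeR). Nip7, a factor for 60S assembly, lay at 279, 577 and 299.7 CPM fresh and at 115, 95.4 and 107 CPM at pH 6.9. These 3 genes separated the 6 libraries in every case and stayed called with the fresh library of mouse 4.

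Among the ribosomal proteins, Rpl19 (chr11:98026710-98030492, plus strand), whose E-box stretch is printed above, lay at 1546, 2874 and 1165 CPM fresh and 637, 542 and 516 CPM at pH 6.9 (log2 change -1.22 ± 0.20, adjusted p = 0.00108, edgeR). Rpl29 lay at 733, 819 and 637 CPM against 307, 269 and 205 CPM. Ribosomal protein genes have many near-identical pseudogene copies, and the estimated counts could be split among them, so single members are less certain than their shared direction.

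In mitochondria, Mrpl12 lay at 471, 586 and 381 CPM fresh and 156, 153 and 119.7 CPM at pH 6.9 (log2 change -1.54 ± 0.21, adjusted p = 0.000351, edgeR). Mrpl20 lay at 241, 448 and 256 CPM fresh and 103, 79.3 and 92.3 CPM at pH 6.9. Of the translation factors, Eef1d, part of the elongation factor 1 complex, lay at 574, 1491 and 546 CPM fresh and 265, 249.999 and 171 CPM at pH 6.9. Eif4a1, the helicase that opens mRNA leaders, lay at 2200, 798 and 2414 CPM fresh and 1080, 1299 and 1017 CPM at pH 6.9, and its adjusted p was 0.00138 without and 0.238 with the fresh library of mouse 4 (edgeR).

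Calls among the proteasome, the chaperonin and heat shock chaperones and the respiratory chain were all downward, and the ER stress chaperones had none. The proteasome list had 17 of 38 called lower, the chaperonin and heat shock chaperones 12 of 26 and the respiratory chain 23 of 77, with none higher. These counts were 21, 12 and 27 with the fresh library of mouse 4. Of 23 ER stress chaperones 0 were called, with or without that library (edgeR; 2 higher and 3 lower at an unadjusted p under 0.05 without it). Hspe1, the mitochondrial co-chaperonin, lay at 513, 766 and 549 CPM fresh and 166, 112 and 104 CPM at pH 6.9, and it is among the genes with the largest falls. Psmc4, a proteasome ATPase, lay at 609, 2077 and 588 CPM fresh against 323, 301 and 273 CPM, and Psma7 at 1140, 2330.0 and 835 CPM against 543, 482 and 361 CPM. Psma7 lost its call without the fresh library of mouse 2 (adjusted p = 0.0689, edgeR). Cct7, a subunit of the cytosolic chaperonin, lay at 1235, 1455 and 1431 CPM against 758, 748 and 609 CPM.

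Of the respiratory chain, Atp5g1, an ATP synthase subunit, lay at 858, 1219 and 706 CPM fresh and 325, 219 and 259 CPM at pH 6.9 (log2 change -1.51 ± 0.28, adjusted p = 0.00308, edgeR). Ndufa12, of complex I, lay at 423, 731 and 394 CPM against 161, 136 and 132 CPM, and Cycs, cytochrome c, at 371, 903 and 407 CPM against 196, 165 and 129 CPM. Nme1, a nucleoside diphosphate kinase, lay at 1014, 2451 and 829 CPM against 404, 377 and 312 CPM. The purine and pyrimidine synthesis list had 7 of 20 called lower and none higher, or 6 lower with mouse 4 in the fresh set.

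Transcript length moved with these falls, and the lists hold many short transcripts. Of genes outside the lists of ribosomes, translation, respiration and proteasome with a median transcript under 1000 bases, 151 of 1844 were called lower and 106 higher, with a median log2 change of -0.04, and of those from 2000 to 4000 bases 66 of 3988 were lower and 250 higher, with a median of 0.25. Members of those lists had a median of -0.96 over 192 genes under 1000 bases, -0.66 over 108 genes from 1000 to 2000 bases, -0.63 over 58 genes from 2000 to 4000 bases and -0.90 over 14 genes of 4000 bases or more, where 9 were called lower. Of 1819 other genes of that greatest length 32 were called higher and 33 lower. Genes under 1000 bases took 32.3% to 36.6% of the counts in the fresh libraries and 29.5% to 31.6% at pH 6.9. The part of transcript length in the result was not tested further.

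Calls among lysosome and autophagy genes were all upward. The lysosome list had 14 of 46 called higher and none lower, with a median log2 change of 0.78, autophagy 7 of 30 (0.68) and the vacuolar proton pump 5 of 16. The counts were 6, 4 and 1 when that of mouse 4 was included. The summed level of the lysosome genes was 7029, 12651 and 5781 CPM fresh and 12390, 12684 and 12501 CPM at pH 6.9, so that mouse 4's fresh library overlapped the pH 6.9 libraries and the other fresh libraries did not.

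Ctsd, the lysosomal protease cathepsin D (chr7:142375911-142388038, minus strand), lay at 517, 14.7 and 456 CPM fresh and at 1990, 2700 and 2182 CPM at pH 6.9, above every fresh value. The log2 change was 2.28 ± 0.24 (adjusted p = 5.16e-05, edgeR), and 2.84 (adjusted p = 0.0312) with the fresh library of mouse 4. Grn, progranulin, lay at 63.4, 1.69 and 70.5 CPM fresh and 184, 219 and 210.1 CPM at pH 6.9 (adjusted p = 0.000186, edgeR, and 0.0548 with the fresh library of mouse 4).

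Sqstm1, the autophagy receptor p62, lay at 175, 45.1 and 135 CPM fresh and 467, 467 and 609 CPM at pH 6.9, with no overlap. The log2 change was 1.78 ± 0.25 (adjusted p = 0.000417, edgeR). Atp6ap1, an accessory subunit of the proton pump, lay at 125, 104 and 143 CPM fresh and at 297, 272 and 231 CPM at pH 6.9. Its call was lost without the fresh library of mouse 2 (adjusted p = 0.0871, edgeR).

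Of 27 tested cell cycle inhibitors and other genes linked to quiescence, 8 were called higher and none lower, and of 27 p53 targets 4 were higher. With the fresh library of mouse 4 the counts were 4 and 3. Cdkn1a, the cyclin-dependent kinase inhibitor p21 (chr17:29090976-29100727, plus strand), lay at 39.98, 166 and 70.2 CPM fresh and 215, 275 and 276 CPM at pH 6.9, with no overlap. Its log2 change was 2.26 ± 0.31 (adjusted p = 0.000312, edgeR), and 1.51 (adjusted p = 0.0452) with the fresh library of mouse 4. Sesn1, a p53-induced stress protein, lay at 50.3, 12.4 and 47.5 CPM fresh and 170.3, 159.5 and 194 CPM at pH 6.9 (log2 change 1.88 ± 0.24, adjusted p = 0.000186, edgeR).

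Mxd4, a partner of MAX that opposes MYC, lay at 7.50, 25.4 and 7.76 CPM fresh and 37.35, 42.7 and 34.8 CPM at pH 6.9, with an adjusted p of 0.00192 (edgeR) and of 0.0748 with the fresh library of mouse 4. Ccng2, an unconventional cyclin, lay at 14.1, 63.7 and 25.5 CPM fresh and 126, 57.38 and 131 CPM at pH 6.9, and the sets overlapped. With mouse 4 its adjusted p was 0.0662 (edgeR). Plk3 lay at 13.4, 0 and 18.3 CPM fresh and 49.8, 36.88 and 95.3 CPM at pH 6.9, and its call was lost with the fresh library of mouse 4 (adjusted p = 0.0542) and without that of mouse 2 (0.0898, edgeR).

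Division genes showed fewer calls. The list of G2 and mitosis held no called gene among 56 (5 at an unadjusted p under 0.05, edgeR), and 1 lower with the fresh library of mouse 4. That of DNA replication had 3 lower among 43 (6.98%, against 5.17% of all genes tested), or 6 with that library. They were Dut, which removes dUTP, at 408, 959 and 393 CPM fresh and 247, 232 and 197 CPM at pH 6.9, Tyms, thymidylate synthase, at 450, 1102 and 371 CPM against 254, 230 and 218 CPM, and Gins1, of the replicative helicase, at 70.3, 266 and 59.9 CPM against 34.5, 39.8 and 19.0 CPM. Each lost its call without the fresh library of mouse 2, at adjusted p of 0.07 for Dut, 0.144 for Tyms and 0.203 for Gins1 (edgeR). Mki67, a marker of cycling cells, lay at 354, 188 and 205 CPM fresh and 207, 215 and 230.0 CPM at pH 6.9, and the sets overlapped. Of 42 stem cell identity genes, Txnip, an inhibitor of thioredoxin and glucose uptake, was the one called. It lay at 71.2, 10.1 and 38.5 CPM fresh and 145, 198 and 156 CPM at pH 6.9 (log2 change 1.65 ± 0.32, adjusted p = 0.0037, edgeR), and its adjusted p was 0.0623 without the fresh library of mouse 6. Hlf lay at 58.1, 25.4 and 50.0 CPM against 56.0, 57.38 and 28.9 CPM, and Mecom at 20.9, 6.20 and 18.01 CPM against 16.4, 36.88 and 20.5 CPM. Neither passed the test. Of the fixed cell cycle genes, Ccnd2 lay at 444, 163 and 473 CPM against 312, 278 and 250 CPM, Cdk6 at 223, 47.3 and 172 CPM against 133, 101 and 121 CPM, Ccnd1 at 52.2, 64.3 and 43.5 CPM against 53.8, 103 and 50.7 CPM and Cdkn1c at 5.62, 0 and 6.21 CPM against 7.36, 4.39 and 3.38 CPM, and none passed the test. Myc lay at 375, 63.7 and 699 CPM against 578, 358 and 405 CPM and Mycn at 36.5, 4.51 and 57.8 CPM against 11.9, 0 and 18.04 CPM, also without a call. Cd48, which is low on long-term stem cells, lay at 30.6, 47.9 and 38.2 CPM fresh and at 0, 6.73 and 2.63 CPM at pH 6.9. The sets did not overlap, and the adjusted p was 0.172 (edgeR).

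Adhesion and homing receptors had 7 of 23 called higher and none lower, both without and with the fresh library of mouse 4. S1pr1, the receptor by which blood cells sense sphingosine-1-phosphate (chr3:115710433-115715072, minus strand), lay at 9.06, 0 and 9.32 CPM fresh and 119, 98.7 and 99.2 CPM at pH 6.9. The log2 change was 3.56 ± 0.37 (adjusted p = 5.16e-05, edgeR). Pecam1 lay at 55.9, 19.7 and 57.8 CPM fresh and 252, 273 and 338 CPM at pH 6.9, and it is also a gene of endothelial cells.

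Selplg, the selectin ligand PSGL-1, lay at 396, 55.2 and 266 CPM fresh and 796, 889.6 and 938 CPM at pH 6.9. Cd34 lay at 648, 315 and 653 CPM fresh and 1249, 1923 and 1205 CPM at pH 6.9, and lost its call without the fresh library of mouse 2 (adjusted p = 0.0605, edgeR). Id3, a target of BMP signalling, lay at 8.75, 0 and 7.76 CPM fresh and 46.4, 84.0 and 59.6 CPM at pH 6.9 (log2 change 2.98 ± 0.51, adjusted p = 0.00158, edgeR). The BMP and TGF-beta signalling list had 1 of 23 called higher and 1 lower (4.35% each), or 1 and 0 with the fresh library of mouse 4. Over all genes tested 4.98% were higher and 5.17% lower without that library, so this list did not exceed that share.

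Of 27 targets of NRF2 and antioxidant genes 6 were higher and 2 lower, and with the fresh library of mouse 4, 3 and 2. Gclc, the catalytic subunit that starts glutathione synthesis, lay at 96.8, 75.5 and 96.9 CPM fresh and 322, 528 and 684 CPM at pH 6.9 (log2 change 2.45 ± 0.34, adjusted p = 0.00043, edgeR). Its partner Gclm lay at 1441, 3648 and 1496 CPM against 2921, 3543 and 3400.0 CPM, and the fresh library of mouse 4 was the highest of the 6. With that library the adjusted p of Gclm was 0.247 (edgeR). Cat, catalase, lay at 179, 100.3 and 246 CPM against 480, 513 and 716 CPM.

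Hmox1, haem oxygenase, lay at 101, 112 and 106 CPM fresh and 298, 606 and 501 CPM at pH 6.9. Its log2 change was 2.22 ± 0.44 (adjusted p = 0.00662, edgeR), and its adjusted p was 0.0922 or 0.0659 without the fresh library of mouse 2 or 6. Sod2, the mitochondrial superoxide dismutase, was lower, at 267, 892 and 244 CPM against 161, 138 and 115 CPM. Its adjusted p was 0.0085, and 0.0713 without the fresh library of mouse 2. Slc16a1, the proton-coupled lactate transporter, lay at 143, 27.1 and 171 CPM fresh and 62.8, 65.0 and 52.2 CPM at pH 6.9, with an adjusted p of 0.00819 without and 0.295 with the fresh library of mouse 4 (edgeR), and of 0.0669 without that of mouse 6. Slc16a3, the other lactate carrier of this kind, lay at 4.06, 0 and 1.55 CPM against 3.96, 0 and 2.82 CPM and did not pass the test.

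Fatty acid oxidation had 7 of 19 called higher and 1 lower, and 0 and 1 with the fresh library of mouse 4, so that none of the 7 rises kept its call with it. Cpt2, which brings fatty acids into mitochondria, lay at 27.2, 0 and 30.7 CPM fresh and 73.0, 75.5 and 53.2 CPM at pH 6.9. Acadvl, an acyl-CoA dehydrogenase, lay at 103, 0.564 and 93.2 CPM against 208, 179 and 150 CPM. Their adjusted p with the fresh library of mouse 4 was 0.135 and 0.245 (edgeR). Their log2 changes were larger with it, at 1.81 and 1.48, against 1.25 and 0.91 without it. Acadl, of the same family, lay at 170, 657 and 209 CPM against 350, 283 and 342 CPM, and its log2 change turned from 0.83 to -0.06 with that library (adjusted p = 0.949). Etfb, which passes the electrons on, lay at 854, 1812 and 582 CPM against 482, 348 and 311 CPM. Its call was lost without the fresh library of mouse 2, at an adjusted p of 0.378 (edgeR), and in other fits that left out 1 library.

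The citric acid cycle had 1 of 20 higher and 2 lower (0 and 3 with the fresh library of mouse 4), and glycolysis 1 of 28 higher and 5 lower (1 and 1 with the fresh library of mouse 4). Without that library these were 5% and 10% of the first list and 3.57% and 17.9% of the second, against 4.98% and 5.17% of all genes tested. Mdh2 lay at 1320, 2164 and 1143 CPM fresh and 642, 549 and 512 CPM at pH 6.9 and kept its call in each fit that left out 1 library. Idh1 lay at 24.4, 159 and 28.3 CPM against 75.8, 87.2 and 62.4 CPM, with an adjusted p of 0.0118 without and 0.919 with the fresh library of mouse 4 (edgeR). Ldha, lactate dehydrogenase, lay at 2082, 750 and 3405 CPM against 1663, 1676 and 1460 CPM, and the sets overlapped. Its adjusted p with that library was 0.609 (edgeR). Pgk1 fell from 967, 1019 and 776 CPM to 499, 486 and 440 CPM, and lost its call without the fresh library of mouse 2 (adjusted p = 0.0668, edgeR). Hk2 and Idh3a were also called lower, with calls lost in 4 of the 5 fits that left out a library, and that of Hk2 also with mouse 4 (adjusted p = 0.0658, edgeR).

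Aprt, which salvages adenine, lay at 320, 356 and 240 CPM fresh and 120, 107 and 108 CPM at pH 6.9 (log2 change -1.28 ± 0.19, adjusted p = 0.000537, edgeR), and Nme2 at 602, 1164 and 661 CPM against 264, 300 and 190 CPM. Psmb7, Tcp1 and Mrps12 were lower without overlap, at log2 changes of -0.97, -0.86 and -1.08. In lipid synthesis 2 of 29 genes were higher, the desaturases Fads1 (1.38) and Fads2 (1.29), and 3 lower, Fasn (-1.39) and Elovl6 (-1.40) among them, on the log2 scale. That is 6.90% higher and 10.3% lower, against 4.98% and 5.17% of all genes tested. Fasn lay at 109, 0.564 and 59.0 CPM fresh against 22.6, 46.0 and 24.6 CPM. Of these 5 calls 1 higher and 0 lower remained with the fresh library of mouse 4, where the adjusted p was 0.111 for Fads2, 0.56 for Fasn and 0.0706 for Elovl6 (edgeR).

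Of 19 hypoxia response genes 4 were higher and 1 lower, and 2 and 1 with the fresh library of mouse 4. P4ha1, a collagen prolyl hydroxylase, lay at 30.9, 45.7 and 38.8 CPM fresh and 110, 113 and 72.5 CPM at pH 6.9. Car9, a carbonic anhydrase at the cell surface, lay at 15.6, 9.02 and 13.7 CPM against 39.0, 31.6 and 39.6 CPM, and lost its call without either fresh library, at adjusted p of 0.131 and 0.146 (edgeR). Bhlhe40 (1.52) was also called higher, and Higd1a (-1.24) lower, on the log2 scale, and the adjusted p of Bhlhe40 was 0.0607 with mouse 4 (edgeR). Without the fresh library of mouse 2 the adjusted p was 0.0601 for P4ha1 and 0.163 for Higd1a, and without that of mouse 6 it was 0.0716 for Bhlhe40 (edgeR). Acid-base and lactate transport had 2 of 20 higher and 1 lower, or 2 and 0 with the fresh library of mouse 4. Without it these were 10% and 5%, against 4.98% and 5.17% of all genes tested.

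Of the cytokine receptor and STAT list 3 of 31 were higher and 1 lower, and none with the fresh library of mouse 4, and of the interferon response 3 of 38 higher and 1 lower, or 0 and 2. Without that library these were 9.68% and 3.23% of the first list and 7.89% and 2.63% of the second. Over all genes tested 4.98% were higher and 5.17% lower, so neither list stood far from that share. Stat3 lay at 65.6, 3.38 and 65.8 CPM fresh and 145, 195 and 121 CPM at pH 6.9, and its adjusted p with that library was 0.0905 (edgeR). Jak1 lay at 195, 805 and 165 CPM against 284, 483 and 348 CPM, and Sp100 at 66.2, 365 and 61.5 CPM against 128, 109 and 104 CPM, and both had a negative log2 change with that library (-0.03 and -0.50, adjusted p of 0.975 and 0.59, edgeR). Ddx58 and Bcl2 were called at adjusted p of 0.049 and 0.0466 (edgeR), and each lost the call in at least 4 of the 5 fits that left out a library, and with mouse 4, at 0.0653 and 0.603.

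In antigen presentation, Tap2, a peptide transporter, lay at 12.5, 1.13 and 24.2 CPM fresh and 98.5, 68.2 and 44.0 CPM at pH 6.9, H2-Q7 at 281, 396 and 219 CPM against 117, 74.1 and 107 CPM, and Psmb8 at 825, 3011 and 667 CPM against 433, 396 and 309 CPM. H2-Ob lay at 1.87, 0.564 and 0.311 CPM against 8.49, 14.1 and 10.1 CPM. Psmb8 lost its call when any 1 of the 5 libraries was left out, at an adjusted p of up to 0.281 (edgeR). Without the fresh library of mouse 2 the adjusted p was 0.0826 for Tap2 and 0.13 for H2-Q7. Without that of mouse 6 it was 0.117 for H2-Ob (edgeR). The MHC class II list had 1 of 11 higher and 3 lower, with and without the fresh library of mouse 4.

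Single called genes remained in other lists. The autophagy receptors Calcoco1 and Tax1bp1 differed: Calcoco1 lay at 2.19, 0 and 3.73 CPM against 16.4, 16.1 and 36.3 CPM, and Tax1bp1 at 416, 2814 and 570 CPM against 780, 775 and 807 CPM, with a log2 change of 0.72 that turned to -0.66 with the fresh library of mouse 4 (adjusted p = 0.446, edgeR). Of the proton pump, Atp6v1d lay at 188, 388 and 144 CPM against 301, 294 and 289 CPM and Atp6v0a1 at 10.9, 9.58 and 8.39 CPM against 24.3, 35.7 and 26.3 CPM, and both lost the call in each of the 5 fits that left out a library and with mouse 4, at adjusted p of 0.597 and 0.054 (edgeR). Vldlr lay at 101, 34.9 and 64.3 CPM against 287, 303 and 290 CPM (log2 change 1.88 ± 0.35, adjusted p = 0.00325, edgeR). Its call was lost without the fresh library of mouse 6 (adjusted p = 0.0557, edgeR).

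The amino acid transporters Slc7a5, at 79.7, 0.564 and 80.4 CPM against 12.5, 29.9 and 38.1 CPM, and Slc7a1, which carries arginine, at 32.8, 2.82 and 32.3 CPM against 11.9, 16.7 and 9.02 CPM, were called lower without the fresh library of mouse 4 and not with it, at adjusted p of 0.52 and 0.453 (edgeR). Mxi1, another MAX partner, lay at 20.9, 1.13 and 28.9 CPM against 40.2, 48.3 and 74.2 CPM, and Sirt3, a mitochondrial deacetylase, at 66.8, 87.4 and 77.6 CPM against 156, 125 and 102 CPM, with adjusted p of 0.12 and 0.131 when the fresh library of mouse 4 was included (edgeR). Slc6a9, Mt2, Il6, Dntt, Tgfbr3 and Sprr2a1 were called at levels that did not exceed 15.97 CPM, the highest value of Il6, and each lost its call in at least 1 fit that left out a library. With the library of mouse 4 the adjusted p was 0.086 for Mt2, 0.335 for Il6, 0.0999 for Dntt, 0.0889 for Tgfbr3 and 0.176 for Sprr2a1 (edgeR).

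Calls of single genes depended on few libraries. Of the 147 genes that the naming rule gave, 123 were called, and 42 of these lost the call with the fresh library of mouse 4, 4 of them with the sign reversed (Acadl, Tax1bp1, Jak1 and Sp100). When 1 of the 5 libraries was left out in turn, 69 of the 123 lost the call at least once.

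**Figure D2:**
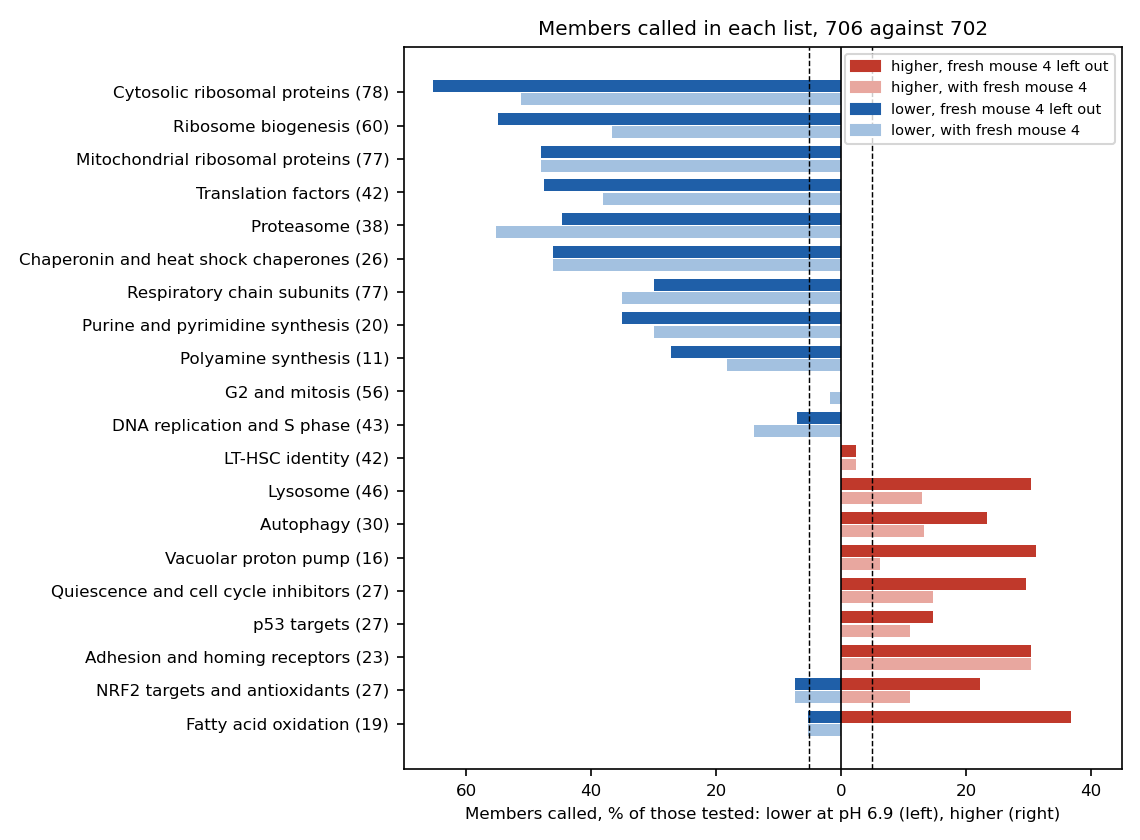
Share of tested members called in each of 20 lists, those lower at pH 6.9 to the left and those higher to the right, with the number tested in brackets. Dark bars leave out the fresh library of mouse 4 and pale bars include it. Dashed lines mark the share over all genes tested without that library, 4.98% higher and 5.17% lower. The shares for the pale bars, 2.17% and 4.35%, are not drawn. The cytosolic ribosomal proteins reach 51 of 78 and the lysosome list 14 of 46, or 6 with that library.

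The genes with the largest rises, among those called that reached a mean of 20 CPM in 1 set and did not overlap, were mostly near 0 in the fresh libraries of index 702. In the fresh libraries of mice 3 and 5 (index 701) some were higher. Tmem119 lay there at 64.9 and 44.4 CPM, Hvcn1 at 24.4 and 17.0 CPM and Slc39a4 at 18.5 and 16.2 CPM. Itgb5, at 2.28 and 3.14 CPM, and Npy, at 0.457 and 0.261 CPM, were low there too. Kcne3, a potassium channel subunit (chr7:100176502-100184869, plus strand), had no count in the fresh libraries of mice 2, 4 and 6. It lay at 27.7, 23.7 and 18.4 CPM at pH 6.9, and at 6.17 and 4.70 CPM in the fresh libraries of mice 3 and 5. At pH 6.9 it was at least 13.8-fold higher than in the first 3, against a floor of 3 counts, 1.69 CPM in mouse 4. Against the highest floor of mice 2 and 6, 0.937 CPM, it was at least 24.8-fold higher. Its adjusted p was 0.000186 (edgeR). Itgb5, an integrin subunit, lay at 0.312, 0 and 0 CPM fresh and 41.3, 57.1 and 45.8 CPM at pH 6.9. Ifitm10 lay at 0, 0 and 0.311 CPM fresh and 28.9, 27.8 and 25.9 CPM at pH 6.9. A fitted change of such genes depends on the prior count and is no measure of its size.

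Olfm2 lay at 0, 0 and 1.24 CPM fresh and 50.4, 42.7 and 35.5 CPM at pH 6.9. Spsb1 lay at 0, 0.564 and 0.932 CPM against 26.0, 24.9 and 35.1 CPM. Olfm2 lost its call without the fresh library of mouse 2 (adjusted p = 0.0633, edgeR), and Npy, at 1.56, 0 and 0.621 CPM against 25.5, 21.1 and 13.7 CPM, without that of mouse 6 (0.0566). Tmem119 lay at 4.06, 0 and 0.932 CPM fresh and 112, 115 and 127 CPM at pH 6.9.

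Slc39a4, a zinc importer, lay at 4.37, 5.07 and 1.55 CPM fresh and 59.4, 99.5 and 81.6 CPM at pH 6.9. The log2 change was 4.79 ± 0.55 (adjusted p = 0.000104, edgeR). B3gnt8 lay at 1.25, 3.38 and 1.24 CPM against 36.8, 29.0 and 25.9 CPM, and Dhrs3, a retinal reductase, at 3.44, 1.13 and 4.97 CPM against 60.6, 43.0 and 62.8 CPM. Hvcn1, a voltage-gated proton channel, lay at 0, 0 and 3.11 CPM fresh and 50.9, 24.9 and 19.0 CPM at pH 6.9 (adjusted p = 0.00194, edgeR). Siglecf lay at 4.69, 0 and 2.17 CPM against 62.3, 36.6 and 94.9 CPM.

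The largest falls were in genes of varied function. Cd74, the invariant chain of MHC class II, lay at 43.4, 66.5 and 123 CPM fresh and at 0.566, 3.22 and 0.564 CPM at pH 6.9, with an adjusted p of 0.00623 (edgeR). H2-Aa, a class II chain, lay at 5.94, 48.5 and 26.1 CPM fresh and at 0 in all 3 pH 6.9 libraries, at least 9.43-fold lower by the fresh libraries of mice 2 and 6 and at least 15.8-fold by all 3, against a floor of 3 counts, 1.70 CPM in the library with the highest floor. H2-Ab1 lay at 35.3, 101 and 66.5 CPM against 12.5, 19.0 and 13.9 CPM. H2-Aa was called at an adjusted p of 0.00739 and H2-Ab1 of 0.0379, and H2-Ab1 lost its call when any 1 of the 5 libraries was left out, at up to 0.295 (edgeR). Without the fresh library of mouse 6 the adjusted p of H2-Aa was 0.0532.

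Fabp5, a fatty acid binding protein, lay at 108, 69.3 and 148 CPM against 34.5, 16.1 and 9.77 CPM (log2 change -2.70 ± 0.44, adjusted p = 0.00139, edgeR). Rangrf lay at 112, 232 and 96.3 CPM against 28.3, 20.5 and 22.7 CPM, and Gm44504 at 38.1, 81.2 and 36.3 CPM against 1.70, 2.63 and 5.07 CPM. Nkg7, a granule protein of cytotoxic cells, lay at 56.2, 60.9 and 38.2 CPM against 9.62, 4.68 and 9.96 CPM. Its call was lost when any 1 of the 5 libraries was left out, at an adjusted p of up to 0.17 (edgeR).

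Of the rest, Chchd10, a mitochondrial protein, lay at 41.9, 27.6 and 40.7 CPM against 10.2, 8.49 and 7.33 CPM. Klk8, Icam4, Fkbp11, Cenpv and Uqcc2 were also lower and non-overlapping. Each of these 5 lost its call in at least 1 fit that left out a library, at an adjusted p of up to 0.0689 for Klk8, 0.196 for Icam4, 0.0827 for Fkbp11, 0.123 for Cenpv and 0.0964 for Uqcc2 (edgeR). Icam4 also lost it with the fresh library of mouse 4, at 0.0798.

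**Figure D3:**
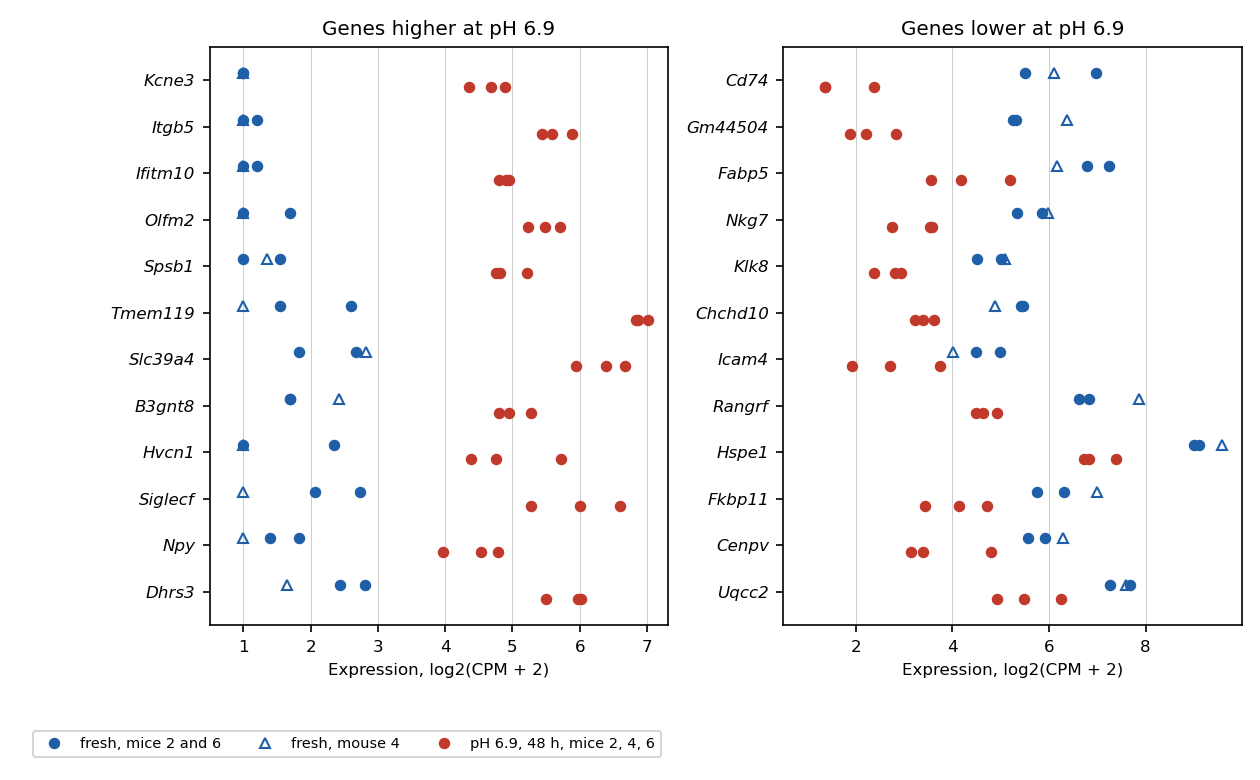
Expression of the 12 genes with the largest rises and the 12 with the largest falls in each library, as log2(CPM + 2). Blue marks are fresh libraries, with mouse 4 as an open triangle, and red circles are pH 6.9; in every gene the 3 fresh and 3 pH 6.9 values do not overlap.

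The libraries of mice 1, 3 and 5 hold the same pair of conditions under other indices, 705 for pH 6.9 and 701 for fresh cells. Of these, the fresh library of mouse 1 and the pH 6.9 library of mouse 3 were left out for a low total or few detected genes, so that the odd-numbered mice rest on 2 libraries a set. The change in the even-numbered mice differed from that in the odd-numbered ones in 717 genes with a larger value in the even-numbered mice (6.39%) and 632 with a smaller one (5.63%), by edgeR's test of the difference. Of the 559 genes higher in the even-numbered mice 115 had the same sign in the odd-numbered ones and 402 differed by the test, and of the 580 lower genes 58 had the same sign and 457 differed. Over all 11226 genes, 5405 had a positive change in the odd-numbered mice and 5804 a negative one. The 1139 genes were picked by their change in the even-numbered mice, which is also part of the difference tested. A large share of them passing it is therefore partly built in. The odd-numbered mice had few calls of their own, 6 higher at pH 6.9 (0.0534%) and 49 lower (0.436%) of 11226 genes. None of the 1139 was among them in the same direction, and 18 of the 559 and 4 of the 580 were called in the opposite one.

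Named genes show the contrast in levels. Srm lay at 380 and 719 CPM in the fresh libraries of mice 3 and 5 and at 702 and 753 CPM at pH 6.9 in mice 1 and 5. Odc1 lay at 368 and 399 CPM against 504 and 623 CPM, and Rpl19 at 707 and 1029 CPM against 1369 and 1318 CPM. Ctsd lay at 1628 and 1392 CPM against 1166 and 801 CPM, and S1pr1 at 22.2 and 18.3 CPM against 14.9 and 7.41 CPM. Cd74 lay at 1.37 and 8.10 CPM against 73.5 and 106 CPM. In each of these 6 genes the direction in the odd-numbered mice was opposite to that in the even-numbered mice, and the difference passed the test.

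In Hmox1 the difference did not pass it (log2 change 1.66 in the odd-numbered mice, adjusted p of the difference 0.599, edgeR), nor in Txnip (0.32, 0.0659), Sat1 (0.26, 0.132) or Smox (0.83, 0.366), and all 4 were positive in both. Cdkn1a had a change of 0.04 in the odd-numbered mice, and its difference passed the test. The ribosomal proteins had a median log2 change of 0.46 in the odd-numbered mice and the lysosome list one of -0.30. In the G2 and mitosis list 13 of 56 genes were called lower in the odd-numbered mice, against 49 of 11226 over all genes tested (0.436%), with a median of -1.72, and none in the even-numbered mice, and the difference passed the test in 23 genes. Mice and first indices differ together between the odd- and even-numbered libraries and cannot be told apart.

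**Figure D4:**
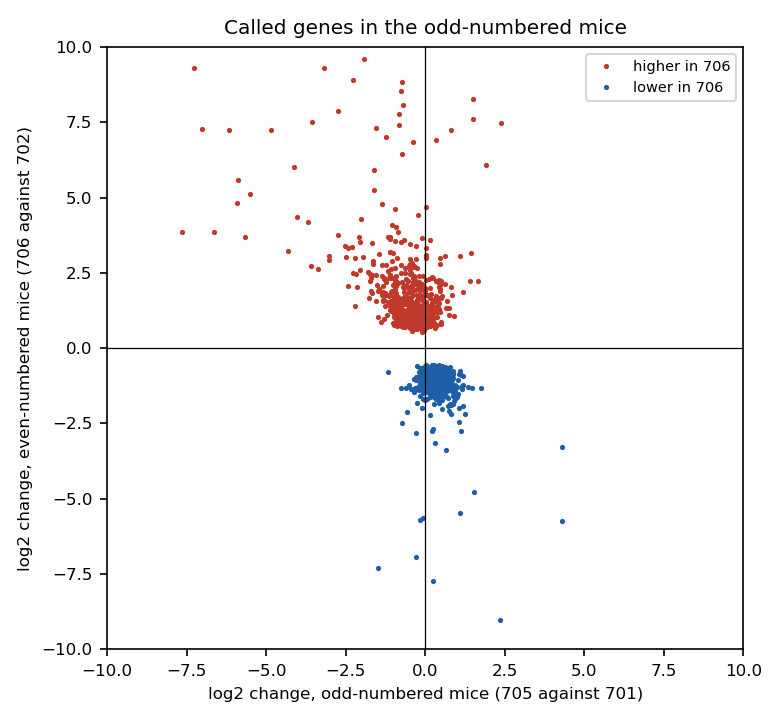
Log2 change of each gene called in the even-numbered mice (vertical axis, 706 against 702) against its log2 change in the odd-numbered mice (horizontal axis, 705 against 701). Red points are the 559 genes called higher and blue points the 580 called lower; 115 of the first lie right of the vertical zero line and 58 of the second left of it.

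Cells were also kept for 48 h at pH 7.4, those of mice 2, 4 and 6 under index 708 and those of mice 1, 3 and 5 under index 707. The comparisons of 706 with 708 and of 708 with 702 share libraries with the one described, and their values are given side by side. The 706 libraries had 301 genes higher than 708 (2.68%) and 399 lower (3.55%), and 708 differed from the fresh cells in 13 genes (0.116%). Srm lay at 615, 706 and 806 CPM in the 708 libraries, with a log2 change of -1.68 at pH 6.9 against 708 and -0.15 in 708 against fresh cells, and at 304, 265 and 255 CPM in the 707 libraries. The 2 pH 7.4 sets did not overlap in this gene, and the 707 values overlapped those at pH 6.9.

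Cdkn1a lay at 59.8, 75.1 and 57.3 CPM in 708, with 2.03 and 0.23, and at 201, 389 and 223 CPM in 707. S1pr1 lay at 23.3, 19.8 and 15.5 CPM, with 2.47 and 1.09, and at 88.6, 62.1 and 96.7 CPM in 707. Ctsd lay at 924, 992 and 593 CPM, with 1.49 and 0.79, and at 2414, 2660 and 2009 CPM in 707. In these 3 genes too the pH 7.4 sets did not overlap. The 707 values overlapped the pH 6.9 values in Cdkn1a and Ctsd, and lay just below them in S1pr1.

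Odc1 lay at 433, 434 and 451 CPM in 708, with -0.70 and -0.33, and at 353, 291 and 316 CPM in 707, between 708 and pH 6.9. Rpl19 lay at 872, 773 and 996 CPM in 708, with -0.61 and -0.61, and at 537, 721 and 727 CPM in 707, where it overlapped the pH 6.9 values. Cd74 lay at 2.04, 6.78 and 0.789 CPM in 708, with -1.07 and -4.67, neither of which passed the test, and at 0, 4.81 and 7.77 CPM in 707. It was thus low in every cultured library of these 3 sets.

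Some of the genes with the largest rises were also high in the 707 libraries. Kcne3 lay at 2.04, 3.39 and 2.68 CPM in 708 and at 24.7, 17.5 and 9.71 CPM in 707. Itgb5 lay at 5.37, 9.23 and 2.84 CPM in 708 and at 67.1, 51.7 and 20.6 CPM in 707. Tmem119 lay at 34.8, 38.0 and 11.8 CPM in 708 and at 94.2, 165 and 95.5 CPM in 707, and Slc39a4 at 22.5, 25.4 and 18.6 CPM and at 63.4, 63.8 and 93.99 CPM. In these 4 genes, picked after their values were seen, the 708 libraries lay below all 706 libraries, and the 707 libraries overlapped the 706 ones. Mice and first indices differ together between 707 and 708, and the difference between them was not tested.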

How the data were processed

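RNA of 18 libraries of mouse stem cells was measured as estimated counts per gene, deposited by the authors in 1 table of 21003 genes; kallisto and the build mm10 are named in the submitters' processing notes, with no version, and no step beyond them is given in the sources used here. The estimated counts were rounded to whole numbers. Samples were grouped by label and first index. The main test was edgeR 4.0.16 (R 4.3.3, quasi-likelihood, TMM normalization, filterByExpr) over 15 libraries in 6 sets, leaving out 3 libraries with a low total or under 10000 genes detected; the fresh library of mouse 4 (702) was put back in an alternative of 16 libraries. Genes with an adjusted p (Benjamini-Hochberg) under 0.05 are called. CPM were computed with TMM factors over 16 libraries, and the fresh library of mouse 4 has a factor of 0.62. DESeq2 1.42.0 and limma 3.58.1 were alternatives. The scripts were tested on simulated data.

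The members and gene lists were chosen with earlier results of these data known. Genes named were the 12 called genes with the largest change in each direction that reached a mean of 20 CPM in 1 set, did not overlap between the sets and kept their sign with the fresh library of mouse 4; up to 3 called members per list and direction by adjusted p; and a fixed set. The rule gave 147 genes, of which 5 are not reported here, and levels of further markers were added. Replicate numbers pair the libraries, since the labels give the mouse number and the design text 6 individual mice. Deviations of same-numbered fresh and pH 6.9 libraries from their set means correlated at -0.02, -0.01 and 0.05 with the fresh library of mouse 4 in the means. Without number 4 the value was 0.05. Between 706 and 708, same-numbered libraries correlated at 0.03, 0.17 and 0.14, and libraries of other numbers at -0.15 to 0.04. P-values rest on a spread estimated over all libraries in the fit, including any of sets not compared. Adding the fresh library of mouse 4 took the calls of 706 against 708 from 700 to 8, though it is in neither set. The part of this spread in other calls lost with that library was not tested. Libraries were not stranded as far as the sources used here say, so overlapping and antisense genes, such as Hspe1 with Hspd1, cannot be told apart, and Ctsd, Ifitm10, Nme1 and Nme2 overlap read-through genes of the same strand, which could share their reads. Coordinates are GENCODE M21 (GRCm38), promoters RefSeq (GRCm38.p6). A count of 0 allows up to 3 counts, for counting error only.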

Additional observations from a re-analysis of the deposited data

Results flagged for a closer look

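The change at pH 6.9 differed between even- and odd-numbered mice in 1349 genes by edgeR's test of the difference, and in 97 of the 123 named genes that were called, of which 94 are given here. The 123 were called by their change in the even-numbered mice, which is part of this difference, so that the large share is partly built in. The differences, even minus odd in log2, were 11.52 for Kcne3, 8.77 for Itgb5, 6.45 for Ifitm10, 7.53 for Spsb1, 11.48 for Tmem119, 6.14 for Slc39a4, 5.58 for B3gnt8, 8.37 for Hvcn1, 6.30 for Siglecf, 7.89 for Npy and 6.50 for Dhrs3, genes near 0 in 1 set or more, whose fitted differences depend on the prior count and are no measure of size. For the lower genes they were -10.03 for Cd74, -4.06 for Gm44504, -2.96 for Fabp5, -3.51 for Klk8, -2.39 for Chchd10, -2.85 for Rangrf, -2.57 for Hspe1, -3.07 for Fkbp11, -2.73 for Cenpv, -2.64 for Uqcc2, -11.37 for H2-Aa and -2.61 for H2-Ab1, and the same limit holds for Cd74 and H2-Aa.

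For protein synthesis, turnover and polyamines the differences were -2.39 for Nhp2, -1.73 for Ncl, -2.16 for Nip7, -1.97 for Rpl29, -1.87 for Rpl19, -2.09 for Mrpl12, -1.99 for Mrpl20, -1.96 for Eef1d, -1.37 for Eif4a1, -1.44 for Eif5a, -1.59 for Psmc4, -1.73 for Psma7, -1.12 for Cct7, -2.25 for Srm, -1.59 for Odc1, -2.11 for Atp5g1, -2.01 for Ndufa12, -1.45 for Cycs and -1.96 for Nme1. For the lysosome, cell cycle inhibitors, receptors and antioxidant genes they were 2.88 for Ctsd, 2.23 for Grn, 2.16 for Sqstm1, 1.10 for Atp6ap1, 2.22 for Cdkn1a, 2.15 for Mxd4, 4.63 for Ccng2, 2.06 for Sesn1, 2.13 for Plk3, 4.51 for S1pr1, 3.32 for Pecam1, 2.20 for Selplg, 1.69 for Cd34, 2.92 for Gclc, 1.46 for Gclm, 2.15 for Cat, -1.33 for Sod2 and 2.95 for Id3. With the fresh library of mouse 4 in the fit the difference passed the test in 191 genes.

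The other named genes had differences of -1.04 for Dut, -0.90 for Tyms, 1.61 for Mxi1, -1.49 for Mrps12, 2.55 for Vldlr, -1.37 for Psmb7, -0.92 for Tcp1, 2.88 for Idh1, -1.50 for Mdh2, -1.12 for Pgk1, -2.27 for Aprt, -1.85 for Nme2, 1.75 for Fads1, 1.45 for Fads2, -2.01 for Fasn, 1.08 for Acadvl, -1.27 for Etfb. For the rest they were 3.90 for Calcoco1, 1.47 for Tax1bp1, 2.33 for Atp6v0a1, 1.86 for Car9, 1.95 for P4ha1, -1.75 for Higd1a, -6.32 for Mt2, 1.49 for Stat3, 1.74 for Jak1, 1.19 for Sp100, -1.43 for Psmb8, 3.41 for Tap2, -2.65 for H2-Q7, 3.32 for H2-Ob, 4.70 for Il6, -7.61 for Sprr2a1 and 1.26 for Sirt3, with the same limit for Mt2, Il6 and Sprr2a1.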

How the results depend on the processing

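For pH 6.9 against fresh cells, 1139 genes were called. There were 727 with the fresh library of mouse 4, 50 with all 18 libraries, 198 in a test against a 1.5-fold change and 412 to 958 without 1 library (412 without the fresh library of mouse 2, 536 and 534 without mouse 6 fresh or at pH 6.9, 720 without the pH 6.9 library of mouse 4). The mouse number as a replicate block gave 932, and 23 with the fresh library of mouse 4. Under the block 16 of the 123 named genes that were called lost the call, among them Nkg7, Icam4, Dntt, Mxi1, Slc7a5, Slc7a1, Smox, Idh3a, Atp6v1d, Atp6v0a1, Bcl2, Sp100, Tgfbr3 and Sirt3. Alternatives chosen after seeing the data gave 0 for the 2 sets alone with the fresh library of mouse 4 (edgeR, 1174 at an unadjusted p under 0.05), and with that library 148, 41 and 28 without the pH 6.9 library of mouse 2, 4 or 6, but 1214 and 1337 without the fresh library of mouse 2 or 6. DESeq2 called 1583 and limma-voom 987.

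The difference between even- and odd-numbered mice gave 1349 genes, and 191 with the fresh library of mouse 4 and 644 with all 18 libraries. It gave 938 under the block alone and 3 under the block with the fresh library of mouse 4. Against a 1.5-fold change it gave 592, and without 1 library 678 to 1222. Against pH 7.4, 700 genes became 8 with the fresh library of mouse 4 and 0 with all 18 libraries (583 at an unadjusted p under 0.05, edgeR). They became 636 under the block alone and 0 under the block with the fresh library of mouse 4 (759). Other counts were 1068 by DESeq2, 1700 by limma-voom, 73 against a 1.5-fold change and 203 to 697 without 1 library. For pH 7.4 against fresh, 13 became 0 with the fresh library of mouse 4 (1709 at an unadjusted p under 0.05), 0 with all 18 (981), 0 under the block with it (1190), 0 against a 1.5-fold change (507), 5 under the block, 369 without a filter, 143 by DESeq2, 30 by limma-voom and 1 to 12 without 1 library.

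Of the 123 called named genes, 96 lost the call, reversals included, with all 18 libraries, 42 with the fresh library of mouse 4, 119 for the 2 sets alone with it, 112 under the block with it, 64 against a 1.5-fold change, 14 by limma-voom and 1 by DESeq2, and 22 to 55 without 1 library. Log2 changes reversed as follows, given in turn for the fit with the fresh library of mouse 4, with all 18 and for the 2 sets alone with it. Among called genes Acadl had -0.0564, -0.0592 and -0.1076, Tax1bp1 -0.6598, -0.6625 and -0.7101, Jak1 -0.0339, -0.0373 and -0.0870 and Sp100 -0.4992, -0.5032 and -0.5507. Among uncalled genes Amd1 had 0.1311, 0.1325 and 0.0772, Cdkn1c 0.3307, 0.3375 and 0.2902, Myc 0.2801, 0.2811 and 0.2293, Hlf 0.1188, 0.1213 and 0.0715 and Slc16a3 0.2165, 0.2182 and 0.1669. Under the block with that library the reversed values were 0.0423 for Ahcy, -0.2719 for Tax1bp1, -0.0979 for Sp100, 0.4016 for Amd1, 0.0544 for Dohh, 0.3635 for Cdkn1c, 0.6300 for Myc, 0.0370 for Hlf, 0.1559 for Fgd5 and 0.3459 for Slc16a3, which also reversed under the block alone (0.1178). Without 1 library, uncalled genes ranged from -0.1938 to 0.0248 for Oaz1, -0.6370 to 0.2941 for Myc, -0.3960 to 0.4882 for Slamf1, -0.3315 to 0.0700 for Hlf, -0.0151 to 0.5525 for Mecom, -1.2854 to 0.4427 for Fgd5, -0.6597 to 0.0928 for Mki67 and -0.9153 to 0.4978 for Slc16a3. The causes were not tested, and the number of libraries limits the precision.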
